A study of Danio rerio with 4 samples.

Results

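The genes examined were those of the zebrafish mitochondrial genome, taken as every gene that the deposited expression table places on the chromosome MT. They number 37 of the 32468 genes listed, and comprise 13 protein-coding genes, 2 ribosomal RNA (rRNA) genes and 22 transfer RNA (tRNA) genes. RNA came from whole embryos at sphere stage, a blastula stage just after the zygotic genome becomes active. Wild-type embryos of the AB strain were compared with embryos of the genotype *eomesa*fh105, also labelled AB, with 2 samples in each group. The mutant embryos came from homozygous mutant parents by *in vitro* fertilisation, lack both maternal and zygotic Eomesodermin A, and are called MZ*eomesa*, or below the mutants. The paper notes that embryos mutant only through the mother took the place of MZ*eomesa* embryos in some of its experiments, without naming which. Sequencing libraries were prepared from the poly(A) fraction.

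For each gene and group the table gives 1 value in FPKM, that is, fragments counted per kilobase of transcript and scaled to the size of the library, into which the authors had combined both samples. No value for a single sample was used, so none of the differences below can be set against a spread between replicates. None was tested here, and the authors' own p-values and q-values were not used. The differences compare these combined libraries only. Differences are given on the log2 scale, as the mutant FPKM over that of wild-type. The mutated gene matched its labels, with 62.6 FPKM of *eomesa* in wild-type embryos against 1.52 in the mutants. Of 10 symbols fixed as blastula markers, 8 were found, and these lay between 17.8 and 120.4 FPKM in wild-type embryos, the highest being the keratin gene *krt18*, which the table marks as failed. The 7 markers of later tissues were at or below 1.61 FPKM there. In MZ*eomesa* embryos 2 of these 7 were over 3 FPKM, the neuronal gene *elavl3* at 3.96 and the cardiac troponin gene *tnnt2a* at 3.51 FPKM. Of the blastula markers, *mxtx2*, a gene of the yolk syncytial layer, had 73.9 FPKM in wild-type against 6.23 in MZ*eomesa* embryos, the ventral gene *vent* 17.8 against 5.82, and *krt18* 120.4 against 268. The other 5 differed by less than 2-fold. The part of these markers in the results below was not tested.

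The mitochondrial genome of vertebrates is a small circle that encodes core subunits of the respiratory chain and of ATP synthase, together with the rRNAs and tRNAs that translate them inside the organelle. It is copied out as long precursors from both strands by a dedicated RNA polymerase. The tRNAs lie between the other genes and are cut out of the precursor, which releases the rRNAs and messenger RNAs, and the messenger RNAs are then polyadenylated. Mitochondria are inherited from the egg, and the blastula embryo still relies on the stock laid down by the mother. Both groups therefore carry the mitochondria of their mothers, and the mothers' genotype and mitochondrial stock cannot be told apart from the embryos' own genotype. In whole embryos fewer mitochondria per cell and less RNA per mitochondrion cannot be told apart either.

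The protein-coding genes were among the most abundant transcripts in the table. In wild-type embryos 6 of the 20 genes with the highest FPKM were mitochondrial, including the first 3 places. The same count was 7 of 20 in MZ*eomesa* embryos, or 6 without *mt-co1*, which has no wild-type estimate. The 12 protein-coding genes with a value in both groups summed to 28197 FPKM in wild-type embryos against 33697 in the mutants, or 5.35% and 6.17% of the FPKM summed over all genes but *mt-co1*. The ratio of the sums was 1.195. Of the 14 protein-coding and rRNA genes with a value in both groups, 0 reached a 1.5-fold difference. Of the 14921 genes with values in both groups and an average of at least 1 FPKM, 22.6% reached it and 9.20% reached 2-fold. Those genes span all levels from 1 FPKM up, and abundant nuclear genes are given below. All 12 protein-coding genes had the higher value in MZ*eomesa* embryos, with a median log2 ratio of 0.22 (a ratio of 1.16), although for 3 of them, *mt-nd4*, *mt-co2* and *mt-nd1*, the direction turned relative to abundant nuclear genes, as given below. Of the 14921 genes, 48.9% were higher in MZ*eomesa* embryos, and their median log2 ratio was -0.01.

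**Figure D1:**
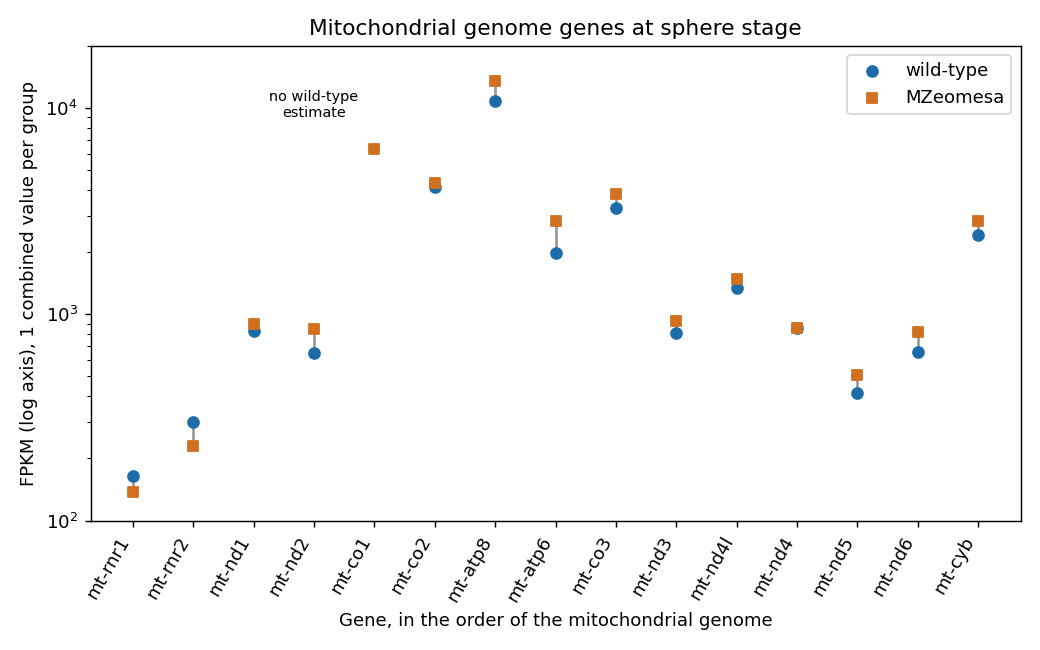
FPKM (log axis) of the protein-coding and rRNA genes of the mitochondrial genome, in genomic order, in wild-type (circles) and MZ*eomesa* embryos (squares), each point being 1 value combined from 2 samples. Both rRNA genes lie lower in MZ*eomesa* embryos, the protein-coding genes lie level or higher (relative to abundant nuclear genes *mt-nd4*, *mt-co2* and *mt-nd1* are lower), and *mt-co1* has no wild-type estimate.

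The highest value in both groups was that of *mt-atp8* (ENSDARG00000063910), which encodes a small subunit of ATP synthase. It had 10829 FPKM in wild-type embryos against 13554 in the mutants, a log2 ratio of 0.32. This 1 gene made up 38.4% of the protein-coding sum in wild-type against 40.2% in MZ*eomesa* embryos. *mt-atp6*, which encodes the subunit of ATP synthase that forms the proton path, had 1991 and 2835 FPKM. Its log2 ratio of 0.51 was the highest of the 12 genes. The reading frames of *mt-atp8* and *mt-atp6* overlap, and in vertebrates both are translated from 1 messenger RNA. The FPKM of *mt-atp8* was nevertheless 5.44 times that of *mt-atp6* in wild-type against 4.78 times in the mutants. *mt-atp8* is the shortest of the protein-coding genes, at 165 bases in RefSeq, against 684 for *mt-atp6*. FPKM is a value per length, and the part that this short length had in the value, rank and share of *mt-atp8* was not tested. The table gives both genes, *mt-co3* and 1 tRNA gene a single listed span (MT, 8894 to 10589), and how the reads there were divided among them enters each value.

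Of the genes of cytochrome c oxidase, which passes electrons to oxygen, *mt-co2* (MT, 8130 to 8820) had 4126 FPKM in wild-type embryos against 4320 in the mutants, a log2 ratio of 0.07. *mt-co3* had 3270 and 3822 FPKM, a log2 ratio of 0.23. *mt-co1* (MT, 6425 to 7975), which encodes the catalytic subunit, is the only gene of the table that Cufflinks marked as having too much data. It is given as 0 for wild-type and as 6304 FPKM for MZ*eomesa* embryos, and no other gene was at 0 in 1 group and over 1000 FPKM in the other. The 0 stands for a failed estimate, so no ratio was computed and the gene is in none of the sums above. As listed, *mt-co1* would be the second highest gene of MZ*eomesa* embryos, at 1.46 times the FPKM of *mt-co2*, and would take 15.8% of a protein-coding sum of 40001 FPKM. *mt-cyb* (MT, 15308 to 16448), which encodes cytochrome b of the complex that hands electrons on to cytochrome c, had 2429 and 2819 FPKM, a log2 ratio of 0.22.

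The 7 genes encoding subunits of complex I, the NADH dehydrogenase, were all below those of the other complexes. They lay between 413 and 1340 FPKM in wild-type embryos, where the 5 other genes with a value started at 1991 FPKM. In MZ*eomesa* embryos the complex I genes lay between 507 and 1487 FPKM and the 5 others started at 2819 FPKM. *mt-nd4l* was the highest of the 7, with 1340 FPKM in wild-type embryos against 1487 in the mutants, a log2 ratio of 0.15. It shares its listed span (MT, 11009 to 12679) with *mt-nd4*, with which it overlaps and is translated from 1 messenger RNA in vertebrates. *mt-nd4* had 858 and 861 FPKM, a log2 ratio of 0.005, and was the gene that differed least. The FPKM of *mt-nd4l* was 1.56 times that of *mt-nd4* in wild-type against 1.73 times in the mutants, and again the shorter gene of the pair had the higher value.

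*mt-nd1* (MT, 3803 to 4777) had 826 FPKM in wild-type embryos against 896 in the mutants, a log2 ratio of 0.12. *mt-nd3* had 812 and 923 FPKM, a log2 ratio of 0.19. Both thus stood near *mt-nd4* in the middle of the complex I range. *mt-nd2* had 647 and 848 FPKM, and its log2 ratio of 0.39 was the second highest of the 12 genes. *mt-nd5* had the lowest FPKM of the protein-coding genes in both groups, with 413 and 507, a log2 ratio of 0.29. *mt-nd6* is the only protein-coding gene read from the opposite strand of the vertebrate mitochondrial genome, and it had 657 and 825 FPKM, a log2 ratio of 0.33. Its FPKM was 1.59 times that of *mt-nd5* in wild-type against 1.63 times in the mutants. Both are listed under the same span (MT, 12897 to 15232). Whether the libraries kept the strand is not given in the sources used here, so reads of *mt-nd6* and reads from the strand opposite it may not have been told apart.

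The order of levels was much alike in both groups. Of the 12 genes, 6 held the same place, among them *mt-atp8*, *mt-co2* and *mt-co3* at the top and *mt-nd5* at the bottom, and no gene moved by more than 2 places. *mt-cyb* and *mt-atp6* changed places with each other. The highest gene was 26.2 times the lowest in wild-type against 26.7 times in the mutants. Over the 12 genes FPKM and the RefSeq length gave a Spearman rho of -0.38 in wild-type against -0.50 in MZ*eomesa* embryos. Without *mt-atp8* the values were -0.20 and -0.35. The genes share their libraries and some share their span, so this describes these 12 genes only.

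The small upward difference was also present in abundant genes of the nuclear genome, a comparison chosen after the values had been seen. Of the 134 nuclear genes averaging at least 400 FPKM, 92 (68.7%) were higher in MZ*eomesa* embryos, with a median log2 ratio of 0.14 and quartiles of -0.05 and 0.27. Relative to that median, 9 of the 12 mitochondrial genes were still higher, and their median became 0.083. *mt-nd4*, *mt-co2* and *mt-nd1* were then lower. Of the 12 genes, 7 lay inside the quartiles of the abundant nuclear genes and 5 above the upper one, namely *mt-atp6*, *mt-nd2*, *mt-nd6*, *mt-atp8* and *mt-nd5*. Of the 134 nuclear genes at this level, 16 reached a 1.5-fold difference, against 0 of the 12 mitochondrial genes. With only 12 genes these counts cannot be set apart, and they were not tested.

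**Figure D2:**
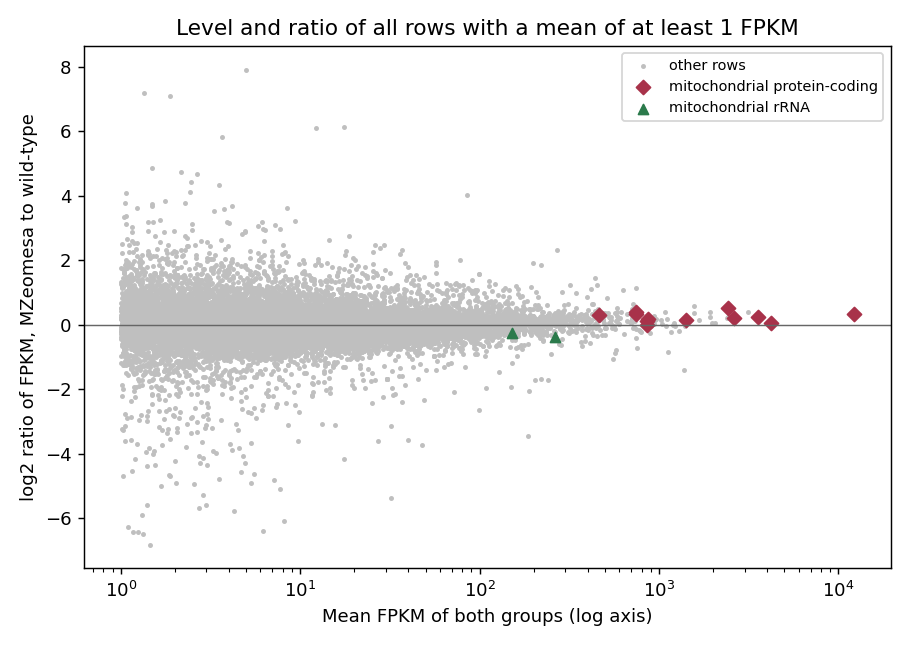
Log2 ratio of FPKM, mutant over wild-type, against the mean FPKM of both groups (log axis) for the 14921 genes averaging at least 1 FPKM, with mitochondrial protein-coding genes as diamonds and mitochondrial rRNA genes as triangles. The protein-coding genes lie at the right end of the cloud between log2 ratios of 0.005 and 0.51, and both rRNA genes lie below 0.

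The 2 rRNA genes carry only clone-based names in the table, AC024175.17 (MT, 1020 to 1971) and AC024175.4 (MT, 2043 to 3725). They were taken as *mt-rnr1* and *mt-rnr2*, the RNAs of the small and the large subunit of the mitochondrial ribosome, because their spans of 952 and 1683 bases equal the RefSeq lengths of those genes and of no other mitochondrial gene. *mt-rnr1* had 165 FPKM in wild-type embryos against 138 in the mutants, a log2 ratio of -0.26. *mt-rnr2* had 299.5 and 229.7 FPKM, a log2 ratio of -0.38. Both were thus lower in MZ*eomesa* embryos, where the 12 protein-coding genes were level or higher. Relative to abundant nuclear genes *mt-nd4*, *mt-co2* and *mt-nd1* were lower as well. Their sum was 1.65% of the protein-coding sum in wild-type against 1.09% in MZ*eomesa* embryos. Each rRNA gene was below all 12 protein-coding genes with a value in both groups. Ribosomal RNA is the bulk of mitochondrial RNA in animal cells but carries at most short tails of A in mammals, and the poly(A) fraction was sequenced here, so the values cover only the part that was captured.

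Among the 871 nuclear genes with a mean of 100 to 400 FPKM, the range in which both rRNA genes lie, 37.1% were lower in MZ*eomesa* embryos. Their median log2 ratio was 0.08, with quartiles of -0.09 and 0.23. Rows with the name of a nuclear-encoded rRNA went both ways. Of the 25 rows named 5S or 5.8S rRNA averaging at least 1 FPKM, 9 were lower in MZ*eomesa* embryos, and the median log2 ratio was 0.60. Over all 14921 genes at that minimum, 48.9% were higher in MZ*eomesa* embryos. Rows of these names at 0 in either group or below that minimum were left out, and their number is not given here. The lengths of these rRNA rows were not taken into account, and the number of reads behind each is not known. The highest 5.8S rRNA row had 1439 FPKM in wild-type embryos against 794 in the mutants, a log2 ratio of -0.86. The highest 5S rRNA row had 1366 and 1763 FPKM, a log2 ratio of 0.37. The part that uptake of RNA without a long poly(A) tail had in the rRNA values was not tested.

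The remaining 22 genes were listed at 0 in both groups and were not tested by the authors. They were taken as tRNA genes because none has the length of an rRNA gene and RefSeq lists 22 tRNA genes on this chromosome. Of the 22, 13 had a span to themselves, of 68 to 77 bases, 6 shared a span with another of the 22, and 3 shared one with a protein-coding gene. Values of 0 were not particular to the mitochondrial genome at this length. All 484 genes of the table with a span of up to 100 bases were listed at 0 in both groups, 471 of them on other chromosomes. The share at 0 in both groups was 82.4% of the 1614 genes with a span over 100 and up to 120 bases, 44.6% from there to 200 bases and 24.6% from there to 400 bases. The paper's reads were longer than any of the 13 spans. The table thus holds no measurement of tRNA, and the 0 says nothing about its level.

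The mitochondrial genes supply part of each complex, and nuclear genes supply the rest. The 74 nuclear genes of complexes I, III, IV and V averaging at least 1 FPKM, taken by symbol, had a median log2 ratio of -0.04, and 33 of them (44.6%) were higher in MZ*eomesa* embryos. None reached 2-fold. Over all 14921 genes at that minimum, 48.9% were higher in MZ*eomesa* embryos and 9.20% reached 2-fold, with a median log2 ratio of -0.01. For complex I, the 7 mitochondrial genes had a median log2 ratio of 0.19 and the 39 nuclear genes 0.05. For complex III, *mt-cyb* had 0.22 and the 8 nuclear genes a median of -0.10. For complex IV, *mt-co2* and *mt-co3* had a median of 0.15 and the 10 nuclear genes -0.09. The gap was widest for ATP synthase, with a median of 0.42 for *mt-atp6* and *mt-atp8* and of -0.20 for the 17 nuclear genes. Of these nuclear genes 5 were higher in MZ*eomesa* embryos. The 0.42 rests on only 2 genes under a shared listed span, and the division of reads there enters both values. The nuclear genes were less abundant, with at most 265 FPKM in wild-type embryos, than the lowest of the mitochondrial protein-coding genes, so level and genome of origin cannot be told apart here. The difference between the sets of genes was not tested.

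**Figure D3:**
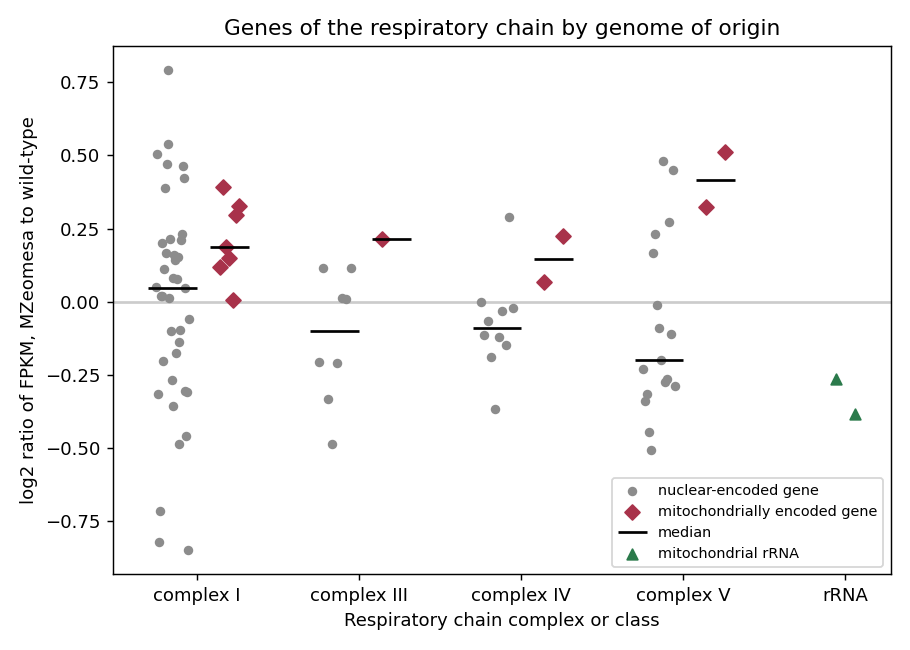
Log2 ratio of FPKM, mutant over wild-type, for nuclear-encoded (circles) and mitochondrially encoded genes (diamonds) of each respiratory chain complex, and for the mitochondrial rRNA genes (triangles), with bars at the medians. In each complex the mitochondrial median lies above the nuclear one, by most in complex V (0.42 and -0.20). The mitochondrial median of complex V rests on 2 genes under a shared listed span, and that of complex III is the value of *mt-cyb* alone. The nuclear genes were less abundant than the mitochondrial ones, so level and genome of origin cannot be told apart.

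The proteins that copy, transcribe and process the mitochondrial genome are themselves made from nuclear genes. For the counts that follow, 48.9% of all 14921 genes averaging at least 1 FPKM were higher in MZ*eomesa* embryos. A 2-fold difference was reached by 9.20% of them. The lists were not set beside nuclear genes of like level. The transcription list gave 10 genes averaging at least 1 FPKM, of which 3 were higher and 7 lower in MZ*eomesa* embryos, with 0 past 2-fold and a median log2 ratio of -0.20. *POLRMT*, the mitochondrial RNA polymerase, had 8.54 FPKM in wild-type embryos against 5.34 in the mutants, a log2 ratio of -0.68. *tfam*, which packages the mitochondrial DNA and starts its transcription, had 15.3 and 17.2 FPKM, a log2 ratio of 0.17. *tfb2m*, the other initiation factor, had 3.75 and 4.50 FPKM. *tfb1m*, in mammals a methyltransferase of the small rRNA, had 3.29 and 2.45 FPKM. *TEFM*, the elongation factor, had 4.92 and 4.27 FPKM. The polymerase was thus lower and the initiation factors slightly higher, all at levels far below those of the transcripts they serve.

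Of the 23 genes of mitochondrial RNA processing averaging at least 1 FPKM, 19 were lower in MZ*eomesa* embryos, with a median log2 ratio of -0.41. The shares over all genes given above, 48.9% higher and 9.20% past 2-fold, stand beside these counts too. The 1 gene past 2-fold was *fastkd1*, a member of a family of mitochondrial RNA-binding proteins, with 3.86 FPKM in wild-type embryos against 1.58 in the mutants, a log2 ratio of -1.29. Of the 12 genes of mitochondrial DNA maintenance, 6 were higher and 6 lower. Here *rrm2b*, a subunit of the ribonucleotide reductase that supplies nucleotides outside S phase in mammals, was the 1 gene past 2-fold. It had 8.99 and 46.6 FPKM, a log2 ratio of 2.37. The 72 genes named as mitochondrial ribosomal proteins, the partners of the rRNAs, had a median log2 ratio of -0.10, with 28 higher and 44 lower in MZ*eomesa* embryos and 0 past 2-fold.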

How the data were processed

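Per the paper's methods, single reads of each sample were mapped with TopHat2 (version 2.0.5 in the submitters' processing notes, which name the build Zv9), and expression was estimated and compared with Cufflinks with reads that map to several places divided among them. Its version and the annotation release are not given in the sources used here. The deposited FPKM values, computed by the authors, number 1 per gene and group, so the 4 samples gave 2 columns of values and 0 columns per sample were left unmapped. The columns of the authors' own fold changes, p-values and q-values were not used. The status column was read as a mark of failed or untested estimates.

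The mutant FPKM was divided by that of wild-type and put on the log2 scale, without a pseudocount, for genes above 0 in both groups with a mean of at least 1 FPKM, and differences past 2-fold were counted. No test was made, since each group has 1 value. Depth is unknown. Among 5491 untested genes above 0 in both groups the most frequent ratio, to 3 decimals, was 0.937, found for 31 genes, which may be the relative worth of a single read. No interval or detection limit was computed. Listed starts count from 0 and were raised by 1. With this, *mt-nd1*, *mt-co1*, *mt-co2* and *mt-cyb*, the protein-coding genes alone on their span, had the length that RefSeq (GRCz12tu) gives. The 2 rRNA genes were matched by that length, so their agreement was fixed in advance and is no check. All 13 protein-coding genes were matched to RefSeq by symbol, and its coordinates were not used.

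Every protein-coding and rRNA gene is named, tRNA genes are given by range and count, and of the nuclear lists only the main transcription factors and genes past 2-fold are named. The genes and lists were chosen with earlier results of these data known. Nuclear genes by level, rRNA by name and genes by span were added after the values were seen. The alternatives were pseudocounts of 1 and 0.1, centring on the median of all genes, tested genes only, 1.5-fold and 3-fold, minima of 0 and 10 FPKM, and sums without some genes. The computation was tested on simulated data. Tables were handled with pandas 2.3.3 and numpy 2.4.6 under Python 3.11.15, rank correlations with scipy 1.17.1 and plots with matplotlib 3.10.9.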

Additional observations from a re-analysis of the deposited data

How the results depend on the processing

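Of 19 alternatives computed, 16 moved a log2 value or log2 ratio by less than 0.1 or left a count unchanged. The other 3 moved it further, and 0 turned the direction of a median or of a ratio of sums. Single genes are not covered by these labels. Several of the 16 could hardly move a result. The 14 genes with a ratio were all marked as tested, and their lowest value was 138 FPKM. Pseudocounts, minima and that mark thus had little or nothing to change. A count of 0 at 1.5-fold also fixes that at 3-fold, and a common divisor cannot change an order. Relative to the median of the nuclear genes averaging at least 400 FPKM, which was added once the data had been seen, the median log2 ratio was 0.083 for the protein-coding genes and -0.46 for the rRNA genes. With that centring 9 of the 12 protein-coding genes were higher in MZ*eomesa* embryos, and *mt-nd4*, *mt-co2* and *mt-nd1* turned lower. The ratio of the protein-coding sums was 1.195 over the 12 genes and 1.16 without *mt-atp8*, the gene with the highest FPKM. It was 1.11 over the 5 genes that share no span with another protein-coding gene. The ratio of the sums thus depended on which genes were summed. Of these 5 genes *mt-co2* had the highest FPKM, with 4126 in wild-type embryos against 4320 in the mutants. The part that the division of reads within shared spans had in the ratio was not tested. The count of genes past the fold was 0 at 1.5-fold, 2-fold and 3-fold. No paired analysis was possible because the deposited table combines both samples of each group, and for the same reason no replicate could be left out. The values used here give neither the spread between replicates nor the depth, so no error was put on these differences. The authors' own p-values and q-values were not used.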
